A study of Homo sapiens with 9 samples.

Results

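Antisense long non-coding RNAs named after a gene (symbols ending in -AS and a number) were followed in the colorectal cancer cell line HCT116 after siRNA against another RNA of this class, EXOSC10-AS1. The count table held 1822 rows with such a symbol among 61806 gene identifiers. Those with a mean level of at least 0.5 CPM (a gene's count as a share of its library's total, scaled to a common library size) over all 9 libraries were kept, leaving out EXOSC10-AS1, MTOR-AS1 and EPB41L4A-AS1, which gave 461 members, all of which passed the filter on low counts and were tested. Of the rest, 1360 rows lay under the threshold and 550 of them had no count in any library. The members were chosen by their measured level, averaged over control and siRNA libraries, so their levels are a description. A member whose mean was under 0.5 CPM in 1 group passed through the groups where it was higher, and a difference between those groups is in part set by the rule.

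Total RNA was sequenced from 3 libraries transfected with a control siRNA, 3 with siRNA 1 and 3 with siRNA 2, both siRNAs being directed against EXOSC10-AS1. All groups were HCT116 cells grown in McCoy's 5A medium with bovine serum, transfected with Lipofectamine RNAiMAX, and all share the batch entry of day 3. Each value is a property of that 1 line, and the labels leave unsaid whether replicates are independent transfections, so p-values measure the spread between these libraries, which may be technical.

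Antisense long non-coding RNAs are transcribed from the strand opposite another gene, here called the partner, and usually overlap it or start close to its promoter. Known modes of action include effects on transcription or chromatin at the partner locus, pairing with the partner's mRNA, and binding of microRNAs or proteins elsewhere in the cell. Many are unstable and kept low by the nuclear RNA exosome, of which EXOSC10, the gene opposite EXOSC10-AS1, encodes a catalytic ribonuclease.

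Depth ran from 56757567 to 66496723 counts per library. EXOSC10-AS1 had 26, 4 and 14 counts in the control libraries, 4, 0 and 0 with siRNA 1 and 5, 13 and 0 with siRNA 2. The siRNA 1 libraries were all below the controls in CPM, while those with siRNA 2 overlapped the controls, and neither difference passed edgeR's quasi-likelihood test (Benjamini-Hochberg adjusted p = 0.19 and 0.55), so the knockdown could be checked only at a few counts. The epithelial markers EPCAM, KRT8, KRT18, KRT19, CDH1, CLDN4 and CDX2 were present in all libraries, VIL1 was at 0 in 8 libraries and CDH17 was at most 0.22 CPM. The leukocyte markers PTPRC and CD3E were at 0 in all 9 libraries.

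The members were low as a class. Their median level was 1.68 CPM against 10.4 for all genes tested, 39 reached 10 CPM and 130 lay under 1 CPM. Together they took 0.192 to 0.213% of a library's counts, and the 10 highest took 25.1 to 28.4% of that share. Just inside the threshold stood UXT-AS1 and MED8-AS1, each at 0.51 CPM, and BVES-AS1 at 0.5, and just under it CA3-AS1 and SEPSECS-AS1, each at 0.499, and TSPAN14-AS1 at 0.496.

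Most members overlap exons of their partner. By the GENCODE annotation, 336 overlap exons of the partner on the other strand, 84 overlap it without shared exonic bases, 25 lie apart with the starts facing, 3 lie apart with the ends facing, 2 lie on the same strand, 10 have no partner in the annotation and 1 is not in the annotation. In 151 pairs the starts lie within 1000 bases of each other. The members were chosen by symbol, and GENCODE annotates 369 of them as antisense, 44 as processed transcript and 33 as lincRNA. It annotates 3 as protein coding and a few others as transcribed pseudogenes. The median longest transcript is 2029 nucleotides long. No source used here states the strand setting of the counting, so reads from a member and from overlapping partner exons cannot be told apart with certainty, and pair results below carry that limit.

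Per kilobase of longest transcript, the member was higher than its partner in 98 of 450 pairs (21.8%), and the median ratio of member to partner was 0.133. FGD5-AS1, at 25.5 CPM per kilobase, lay opposite FGD5, which had counts in 1 library. THAP9-AS1 was at 20.03 CPM per kilobase against 1.34 for THAP9, a transposase-derived gene. MIF-AS1 went the other way, with 32.5 CPM per kilobase against 359 for MIF, a secreted cytokine.

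The most abundant member was OIP5-AS1, a widely expressed cytoplasmic RNA also known as Cyrano that binds a microRNA. It was at 108, 109 and 99.0 CPM in the control libraries, 55.5, 104 and 106 with siRNA 1 and 97.0, 107 and 108 with siRNA 2. Replicate 1 of siRNA 1 lay well under the other 8 libraries, which stood close together, and no comparison called the gene (log2 -0.25 ± 0.20, adjusted p = 0.5 for siRNA 1 and log2 -0.02 ± 0.20, adjusted p = 0.96 for siRNA 2, edgeR). FGD5-AS1 was at 102, 98.8 and 96.9 CPM in the control libraries, 83.2, 109 and 110.3 with siRNA 1 and 95.3, 91.0 and 84.4 with siRNA 2. The siRNA 1 and control groups overlapped, and the siRNA 2 libraries all lay below the lowest control. FGD5-AS1 was not called (log2 -0.13 ± 0.11, adjusted p = 0.45 for siRNA 2). With the GC trend described below removed, it was called lower with siRNA 2 (log2 -0.24, adjusted p = 0.036) and not called with siRNA 1 (log2 0.08, adjusted p = 0.47). Without the 3 libraries with that trend, it was called higher with siRNA 1 (log2 0.15, adjusted p = 0.0071).

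GABPB1-AS1, opposite the ETS-family cofactor gene GABPB1, was at 75.7, 77.4 and 73.8 CPM in the control libraries, 49.9, 83.5 and 83.5 with siRNA 1 and 84.1, 88.8 and 88.3 with siRNA 2. Its low library was again replicate 1 of siRNA 1, as it was for THAP9-AS1 (38 CPM against 53.4 to 62.5 in the other 8) and OTUD6B-AS1 (19.4 against 28.9 to 35.6). Over all members, 23 were more than 1.5 times lower in that library than in every other, against 1 to 11 for each of the rest, and their median GC content was 42.7% against 49.6% for all members.

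**Figure D1:**
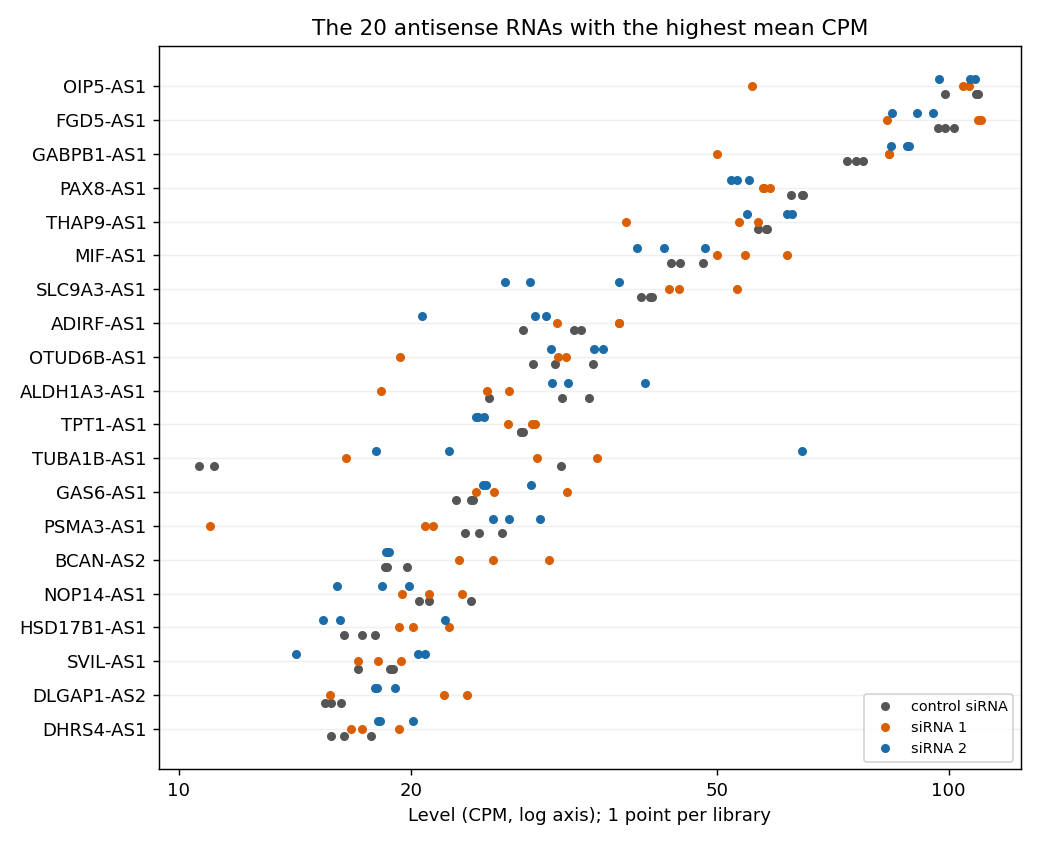
Level of the 20 members with the highest mean, in CPM on a log axis, with 1 point per library coloured by group. OIP5-AS1, GABPB1-AS1, THAP9-AS1 and OTUD6B-AS1 each have 1 siRNA 1 point, replicate 1, well to the left of the other libraries.

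PAX8-AS1, opposite the thyroid and kidney transcription factor gene PAX8, was the 1 member of the 10 most abundant that siRNA 2 changed against control. It was at 64.7, 62.3 and 64.5 CPM in the control libraries, 58.6, 57.4 and 57.5 with siRNA 1 and 53.1, 52.2 and 55.1 with siRNA 2, with each siRNA 2 library below every control. The fall with siRNA 2 was small (log2 -0.26 ± 0.06, adjusted p = 0.023, edgeR), and the call was lost without any 1 of the control libraries, without siRNA 2 replicate 2 or 3 and with upper-quartile factors.

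With siRNA 1 against control, 12 of 461 members were called (adjusted p under 0.05), 7 higher and 5 lower, which is 2.6% of members against 7.08% of all 20868 genes tested (3.72% higher and 3.36% lower). Of the 12, 3 had a mean under 0.5 CPM in 1 of the compared groups. TSPOAP1-AS1 and HOXB-AS2 fell by more than the other 3 called lower, and TMPO-AS1 rose. The members' median log2 change was -0.01 beside -0.02 for all genes. Without control replicate 1, 2 or 3 the count was 2, 1 or 3, without siRNA 1 replicate 2 it was 3, and without siRNA 1 replicate 1 it was 21. Among the 12 calls, 1, that of TSPOAP1-AS1, held under every alternative run.

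With siRNA 2 against control, 31 members were called, 19 higher and 12 lower, which is 6.72% against 13.8% of all genes tested (6.15% higher and 7.61% lower). Of the 31, 5 had a mean under 0.5 CPM in 1 of the compared groups. The falls included RUSC1-AS1, UPK1A-AS1 and RARA-AS1, and the rises KLRK1-AS1 and FLG-AS1. The median log2 change was -0.01, as for all genes. The count was 10, 6 or 12 without control replicate 1, 2 or 3, 10 or 13 without siRNA 2 replicate 2 or 3, 50 without siRNA 2 replicate 1 and 56 without siRNA 1 replicate 1. The split turned to 3 higher and 10 lower without siRNA 2 replicate 3, 4 and 6 without siRNA 2 replicate 2, and 2 and 4 or 5 and 7 without control replicate 2 or 3. A fit without the 3 libraries with a GC trend described below (siRNA 1 replicate 1 and siRNA 2 replicates 2 and 3) keeps only replicate 1 of siRNA 2. Its count with siRNA 2 is therefore not given. Of the 31 calls, 6 held under every alternative.

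Between the siRNAs, 54 members differed, 27 higher and 27 lower with siRNA 2 than with siRNA 1, which is 11.7% against 22.4% of all genes (10.1% higher and 12.3% lower). Of the 54, 9 had a mean under 0.5 CPM in 1 of the compared groups. The mean of both siRNAs against control called 17, 9 higher and 8 lower, which is 3.69% against 7.37% (3.45% higher and 3.92% lower). Of the 17, 3 had a control mean under 0.5 CPM and all 3 were called higher, a direction in part set by the level rule. The other calls were 6 higher and 8 lower. The count between siRNAs was 33 without siRNA 1 replicate 2, 27 without siRNA 2 replicate 2 and 21 without siRNA 2 replicate 3. The count for the mean of both fell to 1, 3 or 2 without control replicate 1, 2 or 3, was 11, 8, 8 or 7 without siRNA 1 replicate 2 or 3 or siRNA 2 replicate 2 or 3, and was 34 or 26 without siRNA 1 replicate 1 or siRNA 2 replicate 1.

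For all genes tested, the share called was higher at higher levels in each comparison. For members with siRNA 1 it was lowest between 1 and 5 CPM. Among those at 5 CPM or more, 8.43% were called with siRNA 1, 13.3% with siRNA 2 and 14.5% between siRNAs, where all genes tested at that level gave 10.8%, 21% and 33%. Between 1 and 5 CPM the shares were 0.806%, 6.05% and 12.9% against 4.42%, 8.61% and 16.8%. Between 0.5 and 1 CPM they were 2.31%, 3.85% and 7.69% against 2.61%, 4.52% and 8.53%.

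**Figure D2:**
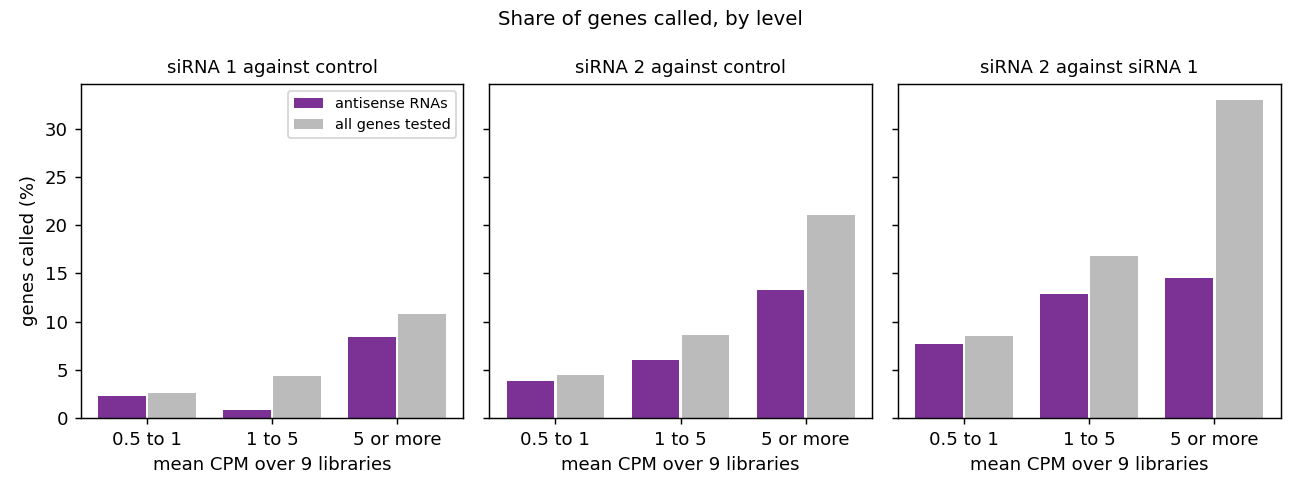
Percent of genes called in each comparison, by mean CPM over the 9 libraries, for the 461 members and for all genes tested. The member bar is the lower of the pair in each band and comparison, from 2.31 against 2.61 at the low end with siRNA 1 to 14.5 against 33 at the high end between siRNAs.

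**Figure D3:**
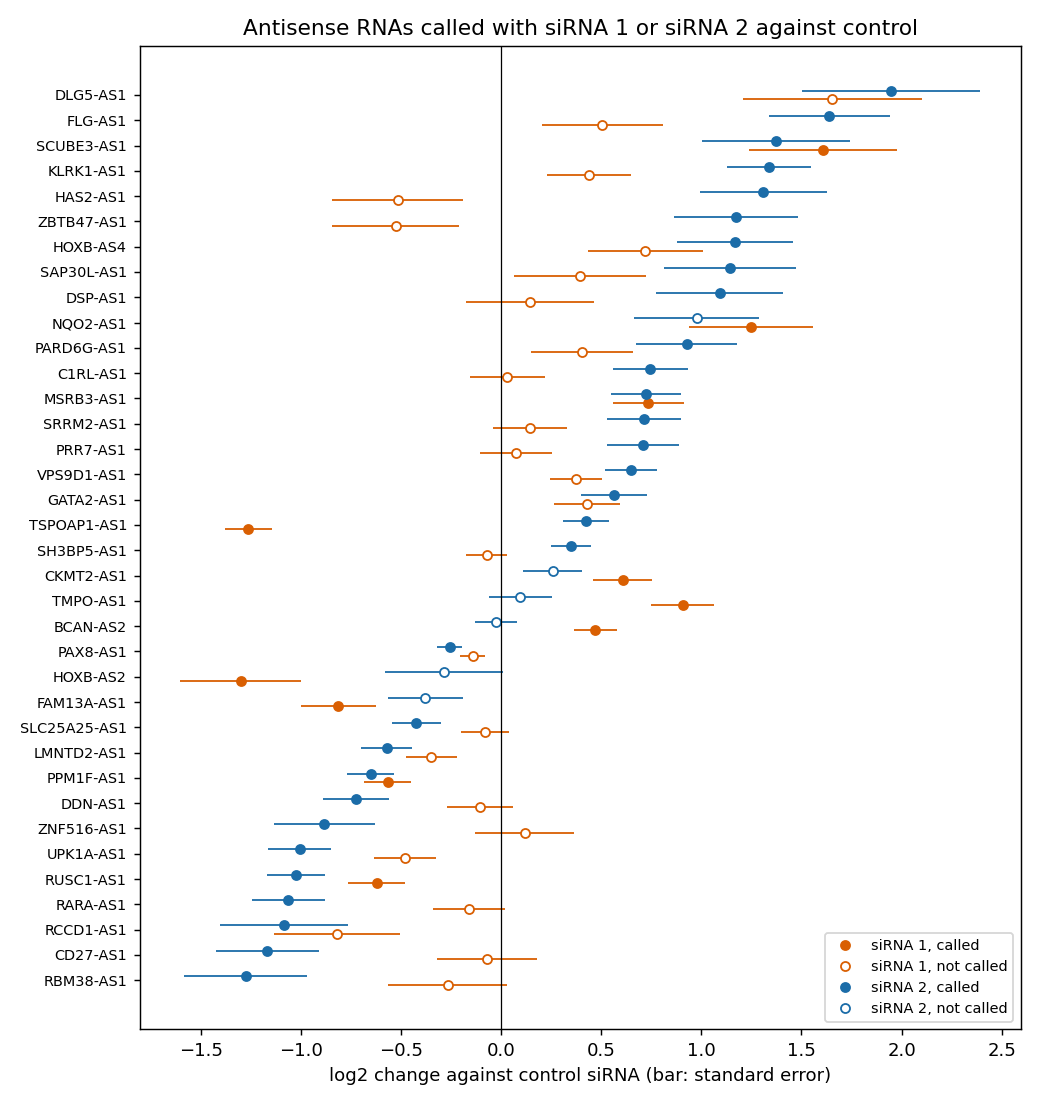
Log2 change against control with its standard error for members called with siRNA 1 or siRNA 2 (1 called member is not shown), filled where called and open where not. TSPOAP1-AS1 has filled points on both sides of 0, at -1.26 and 0.42, and both comparisons use the same 3 control libraries.

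TSPOAP1-AS1 was called in all 3 comparisons of pairs of groups. It lies opposite TSPOAP1, whose protein binds the mitochondrial translocator protein and belongs to the RIM-binding protein family, and 7% of its exonic bases overlap partner exons. It was at 16.7, 19.5 and 16.4 CPM in the control libraries, 6.65, 8.15 and 7.09 with siRNA 1 and 23.0, 25.2 and 22.2 with siRNA 2, so the 3 groups did not overlap, with siRNA 1 lowest and siRNA 2 highest. It fell with siRNA 1 (log2 -1.26 ± 0.12, adjusted p = 0.00052), rose with siRNA 2 (log2 0.42 ± 0.11, adjusted p = 0.036) and differed between them (log2 1.69 ± 0.12, adjusted p = 4.1e-05, edgeR). The call with siRNA 2 was lost without any 1 control library, without siRNA 2 replicate 2 or 3, with no filter on low counts and without the 3 libraries with a GC trend, at log2 values of 0.37 to 0.51 over all alternatives. The other 2 calls held under every alternative.

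Its partner TSPOAP1 was at 1.15, 1.02 and 1.31 CPM in the control libraries, 0.361, 0.265 and 0.316 with siRNA 1 and 2.78, 3.76 and 3.12 with siRNA 2 and fell with siRNA 1 (log2 -1.88 ± 0.23, adjusted p = 0.0019) and rose with siRNA 2 (log2 1.47 ± 0.21, adjusted p = 0.0022). Again no group overlapped another, and both calls held under every alternative. RefSeq gives TSPOAP1-AS1 a pair of starts, shown for the member with the lowest adjusted p with siRNA 1, each from 250 bases before to 50 after the start (GRCh38.p14, chr17:58325200-58325499, plus strand and chr17:58336952-58337251, plus strand), with matches on either strand in capitals to 4 motifs, the CCAAT box (letters CCAAT), the GC box (letters GGGCGG), the TATA box (letters TATAAA) and the E-box (letters CACGTG).
TSPOAP1-AS1 window 1: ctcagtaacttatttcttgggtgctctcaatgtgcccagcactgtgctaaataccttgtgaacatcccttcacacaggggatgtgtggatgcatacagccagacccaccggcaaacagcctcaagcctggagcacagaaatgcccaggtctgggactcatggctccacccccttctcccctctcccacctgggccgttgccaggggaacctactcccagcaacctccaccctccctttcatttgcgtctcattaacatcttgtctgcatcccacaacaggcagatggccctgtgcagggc
TSPOAP1-AS1 window 2: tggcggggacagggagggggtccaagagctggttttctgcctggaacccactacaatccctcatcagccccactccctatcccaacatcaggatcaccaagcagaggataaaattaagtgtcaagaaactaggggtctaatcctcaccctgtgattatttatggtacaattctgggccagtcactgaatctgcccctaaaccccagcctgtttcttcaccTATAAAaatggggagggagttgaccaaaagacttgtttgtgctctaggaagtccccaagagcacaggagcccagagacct
The downstream start holds 1 TATA box match and the upstream start none of the 4 motifs.

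RUSC1-AS1, opposite the adaptor protein gene RUSC1, was at 11.9, 12.9 and 11.8 CPM in the control libraries, 6.80, 7.84 and 9.15 with siRNA 1 and 5.17, 6.67 and 6.17 with siRNA 2. All siRNA libraries lay below all controls. It fell with siRNA 1 (log2 -0.62 ± 0.14, adjusted p = 0.029) and with siRNA 2 (log2 -1.02 ± 0.14, adjusted p = 0.002), and over the mean of both (log2 -0.82 ± 0.12, adjusted p = 0.0042, edgeR). The siRNA 1 call was lost without any 1 control library, without siRNA 1 replicate 2 and with no filter on low counts. RUSC1 itself was at 57.7, 63.7 and 63.2 CPM in the control libraries, 83.9, 81.3 and 77.1 with siRNA 1 and 63.9, 50.4 and 49.9 with siRNA 2, and it rose with siRNA 1 (log2 0.39 ± 0.10, adjusted p = 0.046) with groups that did not overlap, and was not called with siRNA 2 (log2 -0.17 ± 0.10, adjusted p = 0.31). Its siRNA 1 call was lost in 9 of 18 alternatives.
RUSC1-AS1 window 1: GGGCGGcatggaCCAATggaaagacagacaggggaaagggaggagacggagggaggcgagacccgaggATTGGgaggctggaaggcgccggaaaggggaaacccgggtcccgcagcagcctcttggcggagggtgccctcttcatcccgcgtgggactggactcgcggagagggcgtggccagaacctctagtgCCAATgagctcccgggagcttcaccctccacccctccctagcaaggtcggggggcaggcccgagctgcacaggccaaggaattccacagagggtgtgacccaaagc
RUSC1-AS1 window 2: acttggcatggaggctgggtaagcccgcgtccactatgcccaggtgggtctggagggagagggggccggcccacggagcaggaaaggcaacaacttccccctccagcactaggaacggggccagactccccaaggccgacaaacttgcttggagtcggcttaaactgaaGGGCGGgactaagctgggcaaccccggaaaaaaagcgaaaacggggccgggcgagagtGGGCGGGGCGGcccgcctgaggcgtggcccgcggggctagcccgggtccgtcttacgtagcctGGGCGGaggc
These RefSeq windows (chr1:155324127-155324426, minus strand and chr1:155323796-155324095, minus strand) are shown for a member that fell with both siRNAs, and hold 3 CCAAT box matches and 1 GC box match in window 1, and 4 GC box matches, overlapping in part, in window 2.

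PPM1F-AS1, opposite the serine/threonine phosphatase gene PPM1F, was at 21.7, 21 and 22.1 CPM in the control libraries, 17.1, 12.5 and 14.0 with siRNA 1 and 13.4, 13.9 and 13.8 with siRNA 2, with all siRNA libraries below all controls. It fell with siRNA 1 (log2 -0.57 ± 0.12, adjusted p = 0.019) and with siRNA 2 (log2 -0.65 ± 0.12, adjusted p = 0.0067), and the siRNA 1 call was lost without any 1 control library and without siRNA 1 replicate 2 or 3. PPM1F was at 53.4, 54.2 and 57.9 CPM in the control libraries, 43.7, 39.0 and 38.9 with siRNA 1 and 48.3, 37.7 and 38.7 with siRNA 2 and fell in both comparisons as well (log2 -0.44 ± 0.10, adjusted p = 0.031 and log2 -0.41 ± 0.10, adjusted p = 0.028), calls lost in 6 and 7 of 18 alternatives. Of the exonic bases of PPM1F-AS1, 2.15% lie on partner exons.
PPM1F-AS1: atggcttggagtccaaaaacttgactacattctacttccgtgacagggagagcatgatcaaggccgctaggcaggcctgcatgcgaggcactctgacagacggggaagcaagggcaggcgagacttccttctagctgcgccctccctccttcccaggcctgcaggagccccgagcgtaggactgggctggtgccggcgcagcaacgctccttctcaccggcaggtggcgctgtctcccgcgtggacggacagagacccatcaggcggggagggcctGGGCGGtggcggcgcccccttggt
UPK1A-AS1: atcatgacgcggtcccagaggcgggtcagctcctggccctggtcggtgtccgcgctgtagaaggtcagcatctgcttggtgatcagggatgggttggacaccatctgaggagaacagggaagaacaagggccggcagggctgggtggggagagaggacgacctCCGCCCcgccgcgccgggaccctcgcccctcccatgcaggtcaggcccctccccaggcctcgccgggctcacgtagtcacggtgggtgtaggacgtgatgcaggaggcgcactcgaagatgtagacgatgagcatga
The PPM1F-AS1 window (chr22:21937987-21938286, plus strand) and the UPK1A-AS1 window (chr19:35673242-35673541, minus strand), shown for further members that fell with siRNA 2 under every alternative, hold 1 GC box match each. Over all 35116 RefSeq windows, the CCAAT box occurs in 34.6%, the GC box in 45%, the TATA box in 11.5% and the E-box in 7.26%. In the 427 windows of the 350 members that matched, the shares are 29.3%, 60.7%, 5.62% and 9.60%.

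UPK1A-AS1, opposite the uroplakin gene UPK1A, was at 9.88, 9.60 and 9.06 CPM in the control libraries, 8.30, 6.28 and 5.85 with siRNA 1 and 5.36, 4.34 and 4.51 with siRNA 2. It fell with siRNA 2 (log2 -1.01 ± 0.16, adjusted p = 0.0035) with no overlap with controls. RARA-AS1, opposite the retinoic acid receptor alpha gene RARA, was at 2.5, 2.31 and 2.77 CPM in the control libraries, 2.38, 1.98 and 2.42 with siRNA 1 and 1.09, 1.20 and 1.34 with siRNA 2 and fell with siRNA 2 (log2 -1.06 ± 0.18, adjusted p = 0.0053), the siRNA 2 libraries lying below all others. RARA was at 37.4, 36.8 and 39.5 CPM in the control libraries, 38.2, 28.7 and 32.1 with siRNA 1 and 34.2, 31.4 and 32.6 with siRNA 2 and was not called with siRNA 2 (log2 -0.21 ± 0.10, adjusted p = 0.21).

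KLRK1-AS1, opposite KLRK1, which encodes the natural killer receptor NKG2D, was at 2.20, 2.73 and 1.51 CPM in the control libraries, 2.66, 3.20 and 2.87 with siRNA 1 and 5.54, 5.72 and 5.05 with siRNA 2. It rose with siRNA 2 (log2 1.34 ± 0.21, adjusted p = 0.0036), with siRNA 2 above every other library, as did KLRK1 (log2 0.74 ± 0.22, adjusted p = 0.048), whose call was lost in 11 of 18 alternatives. FLG-AS1, opposite the filaggrin gene of the epidermal barrier, was at 0.601, 0.758 and 0.564 CPM in the control libraries, 0.674, 1.04 and 1.01 with siRNA 1 and 1.51, 2.78 and 1.72 with siRNA 2 and rose with siRNA 2 (log2 1.64 ± 0.30, adjusted p = 0.0075), again with no overlap. FLG was at 0.667, 1.01 and 0.548 CPM in the control libraries, 1.33, 0.405 and 1.22 with siRNA 1 and 1.28, 2.01 and 1.57 with siRNA 2 and was not called (log2 1.13 ± 0.42, adjusted p = 0.11).

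HAS2-AS1, opposite the hyaluronan synthase gene HAS2, was at 0.884, 0.476 and 0.838 CPM in the control libraries, 0.476, 0.686 and 0.376 with siRNA 1 and 1.74, 1.53 and 2.20 with siRNA 2. The siRNA 2 libraries lay above all others. HAS2-AS1 rose with siRNA 2 (log2 1.31 ± 0.32, adjusted p = 0.023) and was higher with siRNA 2 than with siRNA 1 (log2 1.83 ± 0.32, adjusted p = 0.0044). The call against control was lost without any 1 control library, without siRNA 2 replicate 2 or 3 and without the 3 libraries with a GC trend, at log2 values of 1.08 to 1.47 over all alternatives. The call between siRNAs held under every alternative. HAS2 was at 0.584, 1.16 and 0.999 CPM in the control libraries, 0.181, 0.857 and 0.301 with siRNA 1 and 4.19, 4.80 and 6 with siRNA 2 and rose with siRNA 2 as well (log2 2.45 ± 0.47, adjusted p = 0.0087), a call that held under every alternative.

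TMPO-AS1, opposite the lamina-associated polypeptide gene TMPO, was at 5.06, 4.36 and 5.32 CPM in the control libraries, 9.63, 9.43 and 8.56 with siRNA 1 and 6.37, 4.39 and 4.99 with siRNA 2. It rose with siRNA 1 (log2 0.91 ± 0.16, adjusted p = 0.009), with siRNA 1 above every other library, and stood lower under siRNA 2 than under siRNA 1 (log2 -0.81 ± 0.16, adjusted p = 0.0068). The siRNA 1 call was lost without control replicate 2. Without the 3 libraries with a GC trend, which leaves only replicate 1 of siRNA 2, the difference between siRNAs was smaller (log2 -0.50). Its call was lost in that fit. TMPO was at 251, 249 and 245 CPM in the control libraries, 145, 242 and 229 with siRNA 1 and 343, 335 and 336 with siRNA 2, and was higher with siRNA 2 than with siRNA 1 (log2 0.72 ± 0.15, adjusted p = 0.01), the reverse of its antisense RNA.

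**Figure D4:**
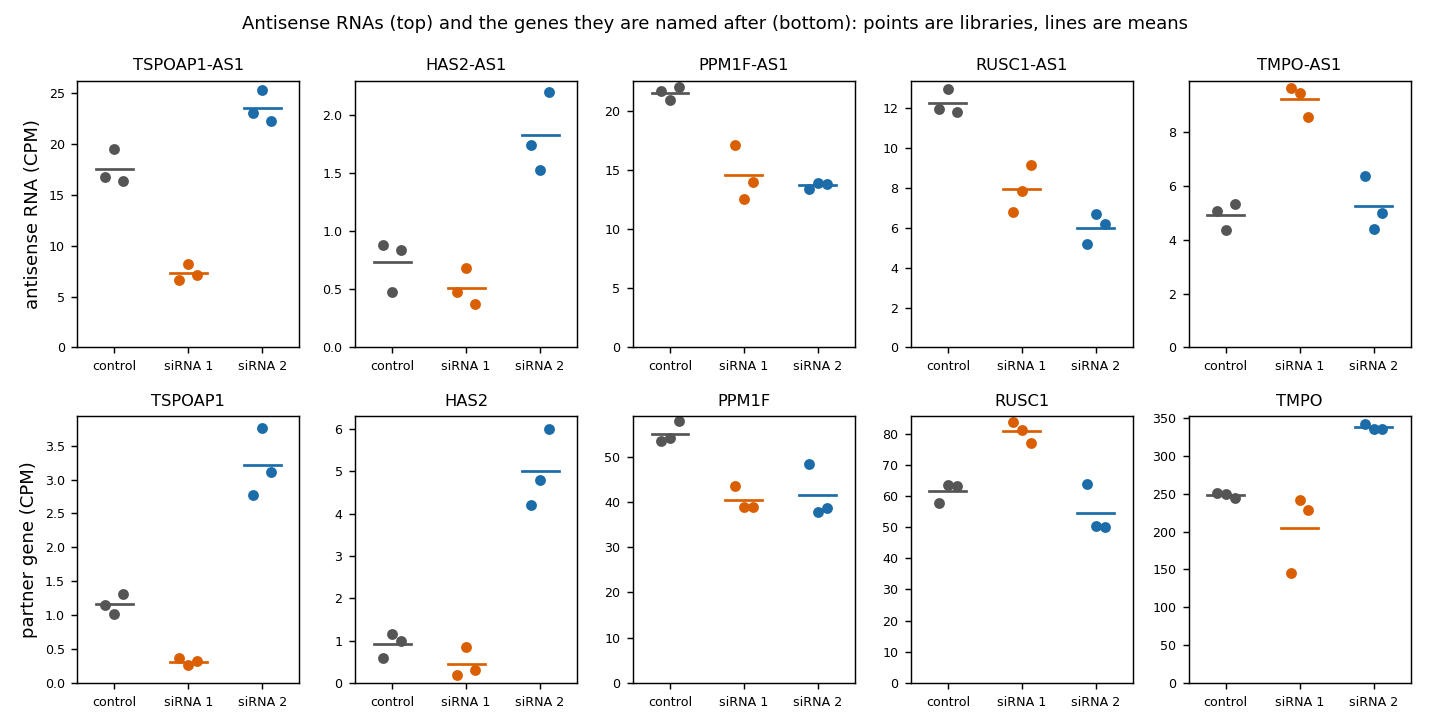
CPM of 5 antisense RNAs (top row) and their partner genes (bottom row), with 1 point per library, the group mean as a line and each axis starting at 0. TSPOAP1, HAS2 and PPM1F follow their antisense RNA, while RUSC1 with siRNA 1 and TMPO between siRNAs moved the other way.

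Other members that rose with a siRNA were low. SCUBE3-AS1, opposite a gene for a secreted cell-surface glycoprotein, was at 0.284, 0.318 and 0.451 CPM in the control libraries, 0.624, 1.56 and 1.04 with siRNA 1 and 0.780, 0.964 and 0.998 with siRNA 2, and rose with siRNA 1 (log2 1.61 ± 0.37, adjusted p = 0.029) and siRNA 2 (log2 1.37 ± 0.37, adjusted p = 0.035) with no overlap with controls. DLG5-AS1, which lies apart from the scaffold protein gene DLG5 with the starts facing, was at 0.167, 0.159 and 0.306 CPM in the control libraries, 0.789, 0.483 and 0.737 with siRNA 1 and 0.731, 0.499 and 1.23 with siRNA 2 and rose with siRNA 2 (log2 1.95 ± 0.45, adjusted p = 0.019). MSRB3-AS1, opposite a methionine sulfoxide reductase gene, was at 2.75, 1.92 and 2.47 CPM in the control libraries, 3.93, 3.93 and 4.05 with siRNA 1 and 3.48, 3.79 and 4.54 with siRNA 2 and rose with siRNA 1 (log2 0.74 ± 0.18, adjusted p = 0.035) and siRNA 2 (log2 0.72 ± 0.18, adjusted p = 0.024). All 3 lost their calls without at least 1 control library. The control means of SCUBE3-AS1 and DLG5-AS1 were under 0.5 CPM, so both met the level rule only through the siRNA libraries and their rises are in part set by it.

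VPS9D1-AS1, higher than these, was at 14.3, 12.4 and 14.3 CPM in the control libraries, 21.1, 16.5 and 15.4 with siRNA 1 and 22.2, 19.8 and 22.4 with siRNA 2. It rose with siRNA 2 (log2 0.65 ± 0.13, adjusted p = 0.011), with siRNA 2 above every control. NQO2-AS1 (log2 1.25 ± 0.31, adjusted p = 0.041) and CKMT2-AS1 (log2 0.61 ± 0.15, adjusted p = 0.036) rose with siRNA 1, each losing the call in 9 of 18 alternatives, and the control mean of NQO2-AS1 was under 0.5 CPM. ZBTB47-AS1 rose with siRNA 2 (log2 1.17 ± 0.31, adjusted p = 0.033), and 5 of its 9 leave-one-out fits lost the call.

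Among the falls, FAM13A-AS1 fell with siRNA 1 (log2 -0.81 ± 0.19, adjusted p = 0.029) from 8.03, 8.70 and 6.67 CPM in controls to 3.48, 4.43 and 5.39. LMNTD2-AS1 fell with siRNA 2 (log2 -0.57 ± 0.13, adjusted p = 0.017), as did CD27-AS1 (log2 -1.17 ± 0.26, adjusted p = 0.016), RBM38-AS1 (log2 -1.28 ± 0.31, adjusted p = 0.023) and RCCD1-AS1 (log2 -1.09 ± 0.32, adjusted p = 0.0499). RCCD1-AS1 lost its call in 15 of 18 alternatives and the others in 3 to 6. With the GC trend removed, LMNTD2-AS1 was not called with siRNA 2 (log2 -0.25, adjusted p = 0.17, edgeR). Of its exonic bases, 45.4% lie on exons of its partner LMNTD2. LMNTD2 also fell with siRNA 2 (log2 -1.04 ± 0.17, adjusted p = 0.0044, edgeR), a call that held under every alternative. The siRNA 2 means of RBM38-AS1 and RCCD1-AS1 were under 0.5 CPM, so both met the level rule through the other groups.

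The HOX clusters, which encode developmental transcription factors, gave 9 members. HOXB-AS2 fell with siRNA 1 (log2 -1.30 ± 0.30, adjusted p = 0.031), a call lost in 8 of 18 alternatives, among them each leaving out a control library. HOXB-AS4 rose with siRNA 2 (log2 1.17 ± 0.29, adjusted p = 0.025), a call lost in 5, also with each control library left out. HOXA-AS2 was higher with siRNA 2 than with siRNA 1 (log2 0.94 ± 0.26, adjusted p = 0.027), a call lost in 6. The means of HOXB-AS2 with siRNA 1 and of HOXB-AS4 in controls were under 0.5 CPM. HOXB-AS2 was also higher with siRNA 2 than with siRNA 1 (log2 1.02 ± 0.30, adjusted p = 0.038), a call lost in 12 of 18 alternatives, and HOXA-AS3, HOXB-AS1, HOXB-AS3, HOXC-AS1, HOXC-AS2 and HOXD-AS2 were called in no comparison of pairs. HOXB-AS3, the most abundant at 6.53 CPM, ranged from 3.68 to 9.03 CPM with overlapping groups. Without the 3 libraries with a GC trend, HOXB-AS3 was called lower with siRNA 1 (log2 -0.99, adjusted p = 0.0011, edgeR). Its log2 change with siRNA 2 in that fit, from replicate 1 alone, was -0.80. With the GC trend removed it was not called (log2 -0.53, adjusted p = 0.26 with siRNA 1 and log2 -0.09, adjusted p = 0.88 with siRNA 2).

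Among members with a described role in cancer cells or chromatin, CDKN2B-AS1, also called ANRIL and tied to Polycomb at the INK4 locus, was at 3.47, 4 and 3.11 CPM in the control libraries, 3.02, 3.87 and 4.03 with siRNA 1 and 2.86, 2.71 and 3.38 with siRNA 2 and was not called (log2 0.05 ± 0.18, adjusted p = 0.91 and log2 -0.24 ± 0.18, adjusted p = 0.42). ZEB1-AS1, opposite the epithelial-mesenchymal regulator ZEB1, was not called either (log2 0.53 ± 0.20, adjusted p = 0.14 and log2 0.58 ± 0.20, adjusted p = 0.083). It was called higher with siRNA 1 with the GC trend removed (log2 0.57, adjusted p = 0.038) and without the 3 libraries with a GC trend (log2 0.70, adjusted p = 0.020). ZEB1 fell with siRNA 1 (log2 -0.86 ± 0.21, adjusted p = 0.035), a call lost in 8 of 18 alternatives. VIM-AS1 was higher with siRNA 2 than with siRNA 1 (log2 0.91 ± 0.28, adjusted p = 0.04, lost in 9 of 18 alternatives), as was VIM, the gene of the intermediate filament vimentin (log2 0.60 ± 0.13, adjusted p = 0.011, lost in 2). FOXD2-AS1, MNX1-AS1, MCM3AP-AS1, PXN-AS1, STARD4-AS1 and HIF1A-AS3 were called in no comparison.

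Among the 10 most abundant members, 3 differed between siRNAs, where 33% of all genes tested at 5 CPM or more did. SLC9A3-AS1, opposite the sodium/proton exchanger gene SLC9A3, was at 41.2, 40.9 and 39.8 CPM in the control libraries, 53.1, 44.6 and 43.3 with siRNA 1 and 37.3, 26.5 and 28.6 with siRNA 2 and lower with siRNA 2 (log2 -0.61 ± 0.13, adjusted p = 0.0096), a call that held in every alternative, though its size ran from -0.77 to -0.24. MIF-AS1 was lower with siRNA 2 (log2 -0.35 ± 0.10, adjusted p = 0.034), a call lost in 10 of 18 alternatives, and the log2 difference was 0.03 with the GC trend removed. ALDH1A3-AS1, opposite a retinaldehyde dehydrogenase gene, was higher with siRNA 2 (log2 0.55 ± 0.17, adjusted p = 0.042), as was ALDH1A3 (log2 0.55 ± 0.05, adjusted p = 0.00024), and 9 of 18 alternatives lost the member's call.

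Across the 437 pairs in which both were tested, the partner was called in 12.6% with siRNA 1, 19.5% with siRNA 2 and 36.6% between siRNAs, where 7.08%, 13.8% and 22.4% of all genes tested were. Partners are mostly higher than members, and of the 359 at 5 CPM or more 14.2%, 21.2% and 39.8% were called, against 10.8%, 21% and 33% of all genes at that level. Of the 11, 30 and 51 called members in these pairs, the partner was called too for 4, 11 and 22, in the same direction for 2, 11 and 20. Over all 437 pairs, the log2 changes had the same sign in 57%, 61.6% and 59%. Among the 110 pairs with no shared exonic bases, both were called in 0, 4 and 5. Besides TMPO, the pair that moved in opposite directions between siRNAs was SBF2-AS1 (log2 -0.51, a call lost in 11 of 18 alternatives) and SBF2 (log2 0.72). Log2 changes of member and partner had Pearson's r of 0.17, 0.35 and 0.29 over the 437 pairs, which share libraries, GC content and in part sequence. Over the 110 pairs with no shared exonic bases r was 0.27, 0.28 and 0.14.

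GC content moved with the libraries. Across 20200 genes, log2 level relative to the control mean had a correlation with GC content of 0.338 for replicate 1 of siRNA 1. It was -0.281 and -0.294 for replicates 2 and 3 of siRNA 2, where the controls ran from -0.011 to 0.02. The controls were set against their own mean, which in part fixes how small their correlations are. Members called lower had a higher median GC content than those called higher, at 53.3% against 47.9% with siRNA 1, 55.5% against 51.2% with siRNA 2 and 54.6% against 48.8% between siRNAs. With siRNA 1 these are 5 and 7 members, and Pearson's r over 460 members was 0.03. The part of the libraries' GC trends in these differences between medians was not tested. With the GC trend removed in each library, 40, 56 and 61 members were called in place of 12, 31 and 54. For partner genes, 119, 127 and 174 were called in place of 55, 84 and 158. The share of all genes called in that fit is not given here, so these counts are not read as particular to members. In that fit TSPOAP1-AS1 was at log2 -1.27 with siRNA 1 and RUSC1-AS1 at -0.99 with siRNA 2.

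**Figure D5:**
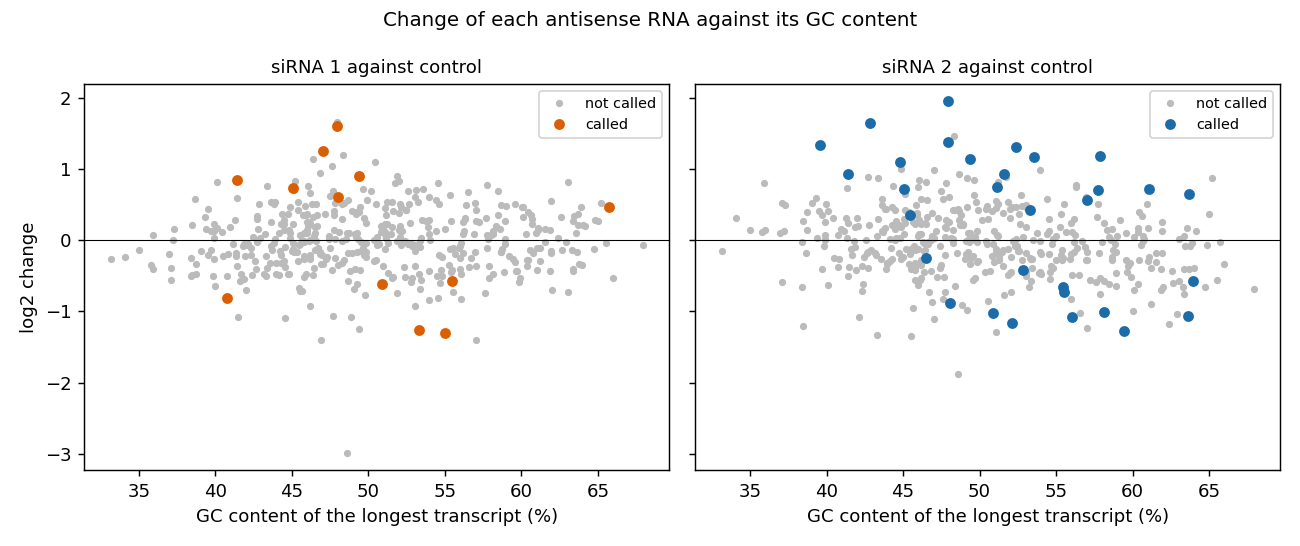
Log2 change of each member against control (vertical axis) by GC content of its longest transcript (horizontal axis), with called members coloured. Over 460 members with a GC value Pearson's r was 0.03 for siRNA 1 and -0.20 for siRNA 2.

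Spread within the control group was wide for a few members. IDI2-AS1 was at 5.69, 4.15 and 0.274 CPM in the control libraries, 0.230, 0.468 and 0.572 with siRNA 1 and 0.845, 0.881 and 1.03 with siRNA 2, so control replicate 3 lay with the siRNA libraries and not with the other 2 controls, and its call over the mean of both siRNAs (log2 -2.43 ± 0.62, adjusted p = 0.044) was lost in 11 of 17 alternatives. TUBA1B-AS1, 80.2% of whose exonic bases lie on exons of the tubulin gene TUBA1B, was at 11.1, 31.3 and 10.6 CPM in the control libraries, 29.2, 16.5 and 34.9 with siRNA 1 and 18.0, 64.5 and 22.4 with siRNA 2, with overlapping groups and no call. EDRF1-AS1 also ranked among the 3 most variable in controls, at 1.12, 0.353 and 0.209 CPM in the control libraries, 0.526, 0.546 and 0.181 with siRNA 1 and 0.634, 0.648 and 0.405 with siRNA 2.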

How the data were processed

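Total RNA-seq of 9 HCT116 libraries (3 control siRNA, 3 siRNA 1, 3 siRNA 2) was used, with groups taken from the labels' titles and treatments. Raw counts, whole numbers for each Ensembl identifier, are what the authors deposited. The submitters' processing notes name hg19 as the build. No source used here states the aligner, counter, annotation or strand setting. Depth was 56757567 to 66496723 counts.

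From these counts, edgeR 4.0.16 in R 4.3.3 fitted 1 model of group means to all 9 libraries (TMM factors, filterByExpr with minimum count 10 and total 15, quasi-likelihood F test, Benjamini-Hochberg over 20868 genes; called means adjusted p under 0.05). CPM printed are TMM-scaled; the membership rule used unscaled CPM. Fold changes are log2 with standard errors. Symbols matched 61757 of 61806 identifiers. Partners, arrangement, GC content and length came from GENCODE 29 and promoter windows from RefSeq GRCh38.p14, a newer build than the files, so no measured position is given. The fit was run on simulated counts with known changes, drawn with less spread than these libraries show. Changes were placed only in genes above a set level. That run therefore does not tell how many changes are found at the low levels of most members.

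Alternatives were other size factors, no filter, DESeq2 1.42.0, limma-voom (limma 3.58.1), GC trend removal, a replicate block, only the compared groups, and each library left out. The fit without the 3 libraries with a GC trend counts among them. It keeps only replicate 1 of siRNA 2, so a siRNA 2 call held or lost there rests on that library. The members and lists were chosen with earlier results of these data known. The level bands, the 1.5-times library counts, the motifs, the promoters shown, the GC comparison and the fit without 3 libraries were chosen after values were seen. Genes were named by rank of level, by the largest called changes in each comparison, by control spread and from a list of described RNAs, with their partners; the HOX cluster members, SBF2-AS1 and SBF2 were added after their values were seen. Same-numbered libraries did not deviate together (correlations of -0.045 to 0.096), so the block is not a pairing. The values of 1 member and its partner are not reported here, though counts over the members include them.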

Additional observations from a re-analysis of the deposited data

Results flagged for a closer look

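The effects of siRNA 1 and siRNA 2, taken against the same control libraries, differed for 27 of the 63 named members by edgeR's quasi-likelihood test of siRNA 2 against siRNA 1 with Benjamini-Hochberg adjustment, where 22.4% of all genes tested differed. Members were named in part for the size of their called changes, so this count follows from the choice. The log2 difference, siRNA 2 minus siRNA 1, follows each name. Higher with siRNA 2 were HAS2-AS1 (1.83), ZBTB47-AS1 (1.70), TSPOAP1-AS1 (1.69), LRP2BP-AS1 (1.5), A2M-AS1 (1.37), TMEM44-AS2 (1.31), FLG-AS1 (1.14), HOXB-AS2 (1.02), HOXA-AS2 (0.94), VIM-AS1 (0.91), KLRK1-AS1 (0.90), ALDH1A3-AS1 (0.55), PCBP1-AS1 (0.44). Lower with siRNA 2 were ILRUN-AS1 (-1.46), POLH-AS1 (-1.44), TROAP-AS1 (-1.21), LIF-AS1 (-1.20), C21orf62-AS1 (-1.18), CD63-AS1 (-1.17), CD27-AS1 (-1.10), RBM38-AS1 (-1.01), RARA-AS1 (-0.90), TMPO-AS1 (-0.81), DDX11-AS1 (-0.65), SLC9A3-AS1 (-0.61), UPK1A-AS1 (-0.52), MIF-AS1 (-0.35).

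TSPOAP1-AS1 moved in opposite directions in the 2 comparisons with control, at -1.26 with siRNA 1 and 0.42 with siRNA 2. For HAS2-AS1, FLG-AS1, KLRK1-AS1 and RARA-AS1 the siRNA 2 libraries stood apart from all others, and for TMPO-AS1 the siRNA 1 libraries did. Of the 27 calls, 3 were kept in all 18 alternatives, those of TSPOAP1-AS1, HAS2-AS1 and SLC9A3-AS1. The call of DDX11-AS1 was lost in 15, including all 9 that leave out 1 library, that of RBM38-AS1 in 13, those of TROAP-AS1 and HOXB-AS2 in 12, that of LIF-AS1 in 11 and those of MIF-AS1 and UPK1A-AS1 in 10. HOXB-AS2, RBM38-AS1, TMEM44-AS2, TROAP-AS1, LRP2BP-AS1, LIF-AS1, ILRUN-AS1 and A2M-AS1 had a mean under 0.5 CPM in 1 siRNA group, so the level rule in part sets their difference. Libraries of both siRNA groups differed from the controls in their relation to GC content, and its part in these differences was not tested beyond the fits given above.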

How the results depend on the processing

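Members called with siRNA 1 against control numbered 12. They became 4 with no filter, 26 by DESeq2, 40 with the GC trend removed and 41 without the 3 libraries that follow GC content (siRNA 1 replicate 1, siRNA 2 replicates 2 and 3, chosen after seeing the data), and 1 to 21 with a library left out. With siRNA 2 the 31 became 17 with no filter, 49 by DESeq2, 56 with the GC trend removed and 6 to 56 with a library left out. Between siRNAs the 54 became 31 with no filter, 23 with only the compared groups, 20 without the 3 libraries and 21 to 66 with a library left out. Over the mean of both the 17 became 8, 31, 38 and 42 (no filter, DESeq2, GC trend removed, without the 3 libraries) and 1 to 34. For partner genes, the 55 called with siRNA 1 became 88 by DESeq2, 119 with the GC trend removed, 164 without the 3 libraries and 17 to 80 with a library left out, the 84 with siRNA 2 became 127 with the GC trend removed, 137 with only the compared groups and 34 to 155, and the 158 between siRNAs became 84 with only the compared groups and 72 to 194. Shares over all genes under these settings are not given, so whether the changes in count are particular to members was not tested. Nor was their cause. GABPB1-AS1 with siRNA 1 reversed to 0.15 without the 3 libraries, and MIF-AS1 reversed to 0.30 with siRNA 2 and to 0.025 between siRNAs with the GC trend removed.

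With a replicate block, members called were 11, 31, 54 and 13 in the 4 comparisons. The numbers do not pair the libraries. The median member lay at 1.68 CPM, and the part of depth in how many were called was not tested.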
